A study of Mus musculus with 30 samples.

Results

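The major histocompatibility complex (H2 in the mouse) was described here through the 31 genes whose symbols begin with H2- among the 18022 genes of an ovarian expression table. By textbook class, 21 of them belong to class I or its non-classical relatives (class Ib) and 9 to class II, and H2-Ke6 lies in the same region but encodes a dehydrogenase and no presenting molecule. Whole-ovary messenger RNA was read in 30 libraries, 3 for each of 10 groups. All animals were adult females of the outbred CD1 stock, and all were dosed for 10 days. The groups received DEHP, di(2-ethylhexyl) phthalate, at 20 or 200 ug/kg/day, DiNP, diisononyl phthalate, at 20 or 100 ug/kg/day, or the vehicle alone. Each of these 5 treatments was sampled 3 months after the last dose and again, in other libraries, directly after dosing (0 months). Both phthalates are plasticizers, and DiNP is used in place of DEHP. Time since dosing and the age of the mice cannot be told apart in this design. Replicates are numbered by the labels, which name no animal for any library. Every p-value below therefore speaks of the spread among libraries and of nothing wider. Tests of differences pool the spread within all 10 groups, and tests of correlation run over all 30 libraries.

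Class I molecules sit on nearly all nucleated cells. A heavy chain (H2-K1, H2-D1) pairs with B2m and shows peptides cut by the proteasome and pumped by Tap1 and Tap2 to CD8 T cells. Class II molecules are pairs of an alpha and a beta chain (H2-Aa with H2-Ab1), made mainly by macrophages, dendritic cells and B cells. They travel with the invariant chain Cd74, are loaded with the help of H2-DMa and H2-DMb, and show peptides to CD4 T cells. Transcription of class II depends on Ciita and that of class I on Nlrc5, both coactivators induced by interferon gamma. In the ovary macrophages are abundant among the leukocytes, and class II is a usual marker of their activated state.

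The promoters of 4 members are shown because the results below turn on these genes: the class II chains H2-Aa and H2-Eb1 and the class I heavy chains H2-K1 and H2-D1. Each is the window from 250 bases before to 50 after a start site listed in RefSeq (GRCm38.p6), written 5′ to 3′ on the strand of the gene, at chr17:34287774-34288073 (minus strand), chr17:34305617-34305916 (plus), chr17:34000298-34000597 (minus) and chr17:35262844-35263143 (plus). For H2-K1 the table holds 2 start sites inside the annotated span of the gene, and the window of the first is printed. Capitals mark 3 motifs searched on both strands: ATTGG, the Y box bound by NF-Y, GAANNGAAA, a core of interferon-stimulated response elements, and GGGGATTCC, a kappa B site known from the enhancer of class I genes.
H2-Aa: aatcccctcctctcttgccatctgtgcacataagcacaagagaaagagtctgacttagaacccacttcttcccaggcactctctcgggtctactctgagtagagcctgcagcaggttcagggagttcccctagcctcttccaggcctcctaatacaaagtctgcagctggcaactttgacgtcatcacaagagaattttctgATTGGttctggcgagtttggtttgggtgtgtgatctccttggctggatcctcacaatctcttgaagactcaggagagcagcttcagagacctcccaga
H2-Eb1: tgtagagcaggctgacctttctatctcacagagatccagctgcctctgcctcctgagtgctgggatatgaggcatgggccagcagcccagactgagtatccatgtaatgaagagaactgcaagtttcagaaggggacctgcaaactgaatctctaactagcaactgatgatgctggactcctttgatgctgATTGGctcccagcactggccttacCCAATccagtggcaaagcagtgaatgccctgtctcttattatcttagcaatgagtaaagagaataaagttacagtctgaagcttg
H2-K1: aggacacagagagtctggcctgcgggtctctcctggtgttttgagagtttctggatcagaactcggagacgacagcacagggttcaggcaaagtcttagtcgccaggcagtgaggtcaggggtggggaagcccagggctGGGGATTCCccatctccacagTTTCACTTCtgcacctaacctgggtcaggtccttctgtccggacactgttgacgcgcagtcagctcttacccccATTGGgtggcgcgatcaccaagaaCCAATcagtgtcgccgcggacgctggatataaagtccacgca
H2-D1: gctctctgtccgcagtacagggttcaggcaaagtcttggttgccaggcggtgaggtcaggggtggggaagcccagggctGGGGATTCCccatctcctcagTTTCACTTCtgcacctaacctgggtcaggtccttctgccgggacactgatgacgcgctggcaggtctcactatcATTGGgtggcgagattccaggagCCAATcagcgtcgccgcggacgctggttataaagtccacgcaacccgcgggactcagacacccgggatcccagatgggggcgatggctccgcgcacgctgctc
Of the 31 members 21 had a promoter in the table. The interferon element core stood in 8 of 13 class I promoters and 0 of 7 class II promoters, against 7.52% of all 32851 promoters. The kappa B letters stood in 4 of the 13, those of H2-K1, H2-D1, H2-Q6 and H2-Q7, and in 0 of the 7, against 0.25% of all promoters. The Y box letters were common to both classes (11 of 13 and 6 of 7, against 37.4% of all promoters). A match of letters in a window is a description and not a bound site.

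The members with coordinates in RefSeq (GRCm38.p6) lie on chromosome 17, in the order H2-K1 at chr17:33996012-34000619, H2-Ab1 at chr17:34263227-34269418, H2-Aa at chr17:34282744-34287823, H2-Eb1 at chr17:34305867-34316674, H2-D1 at chr17:35263094-35267497, H2-T23 at chr17:36029977-36032701, H2-T22 at chr17:36037128-36042742, H2-Bl at chr17:36080110-36084249 and H2-T10 at chr17:36115871-36121444 among those described most below.

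Levels are given as log2 CPM (read counts scaled to a common library total, CPM, on a log2 scale), the unit of the deposited table, and differences between groups are differences of log2 CPM. Genes were tested with limma when their mean exceeded 0 log2 CPM, which kept 14740 genes and 28 of the 31 members. The others were H2-K2 (mean -0.85), H2-M5 (-1.01) and H2-Oa (-1.38), an inhibitory chain of class II loading. A gene passed at a Benjamini-Hochberg adjusted p under 0.05. The table holds no read counts and its depth is unknown. Libraries of one group correlated at r = 0.908 to 0.98 over all tested genes. Replicate 3 of DEHP 200 at 0 months had the lowest median correlation with the other libraries (0.931), followed by replicate 3 of DiNP 100 at 3 months (0.944). In DEHP 200 at 0 months the summed theca and interstitial markers ran from 4390 to 31080 CPM, and the results were also computed without its replicates 2 and 3. Over the 0-month libraries Cyp11a1, Hsd3b1 and Star had the highest means of that list (12.47, 12.29 and 10.47 log2 CPM) and weigh most in the sum. As a check of the tissue, 8 granulosa markers summed to 1990 to 5880 CPM and 8 oocyte markers to 139 to 569 CPM over the 30 libraries.

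Per kilobase of the longest GENCODE transcript, the classical class I heavy chains were the most abundant members. H2-D1 averaged 151 CPM per kb over the 30 libraries and H2-K1 136. The 2 levels lie closer together than either gene varied among libraries (SD 0.91 for H2-D1 and 0.75 for H2-K1 on the log2 scale). The class II chains H2-Aa, at 93.2, and H2-Ab1, at 55.4 CPM per kb, came next. H2-T23, the class Ib gene of Qa-1, which displays leader peptides of other class I chains to NK cell receptors, stood at 49.0. H2-Ke6 was at 40.2, but 61.4% of the 101-base windows of its transcripts, the length of a read, also occur in the transcripts annotated as Gm20427, so its value is uncertain. The class Ib gene H2-Q4 followed at 28.7, H2-T10 at 19.5 and H2-Eb1, the beta chain of the second class II molecule, at 17.3.

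Members varied far more between libraries of the same group than most genes did. The median SD within groups was 1.02 log2 over the 28 tested members and 0.246 over the 14740 tested genes. It exceeded 1 in 15 of 28 members (53.6%) and in 413 of all tested genes (2.80%). The 2 sets were not matched for level. Of the 15 members, H2-T10 (mean 4.67), H2-Eb1 (3.34), H2-T22 (3.27) and H2-Bl (2.36) averaged above 2 log2 CPM and the others below it. The part of low level in their spread was not tested. The steadiest were H2-M3, a presenter of formylated peptides, with 0.24, H2-T23 with 0.32 and H2-Ke6 with 0.34. The widest were H2-Bl with 3.04 and H2-Ea-ps with 2.76. Reads were assigned to transcripts of the reference mouse strain, whereas the mice were outbred, and H2 genes are among the most variable between strains. How this moved the values was not tested.

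**Figure D1:**
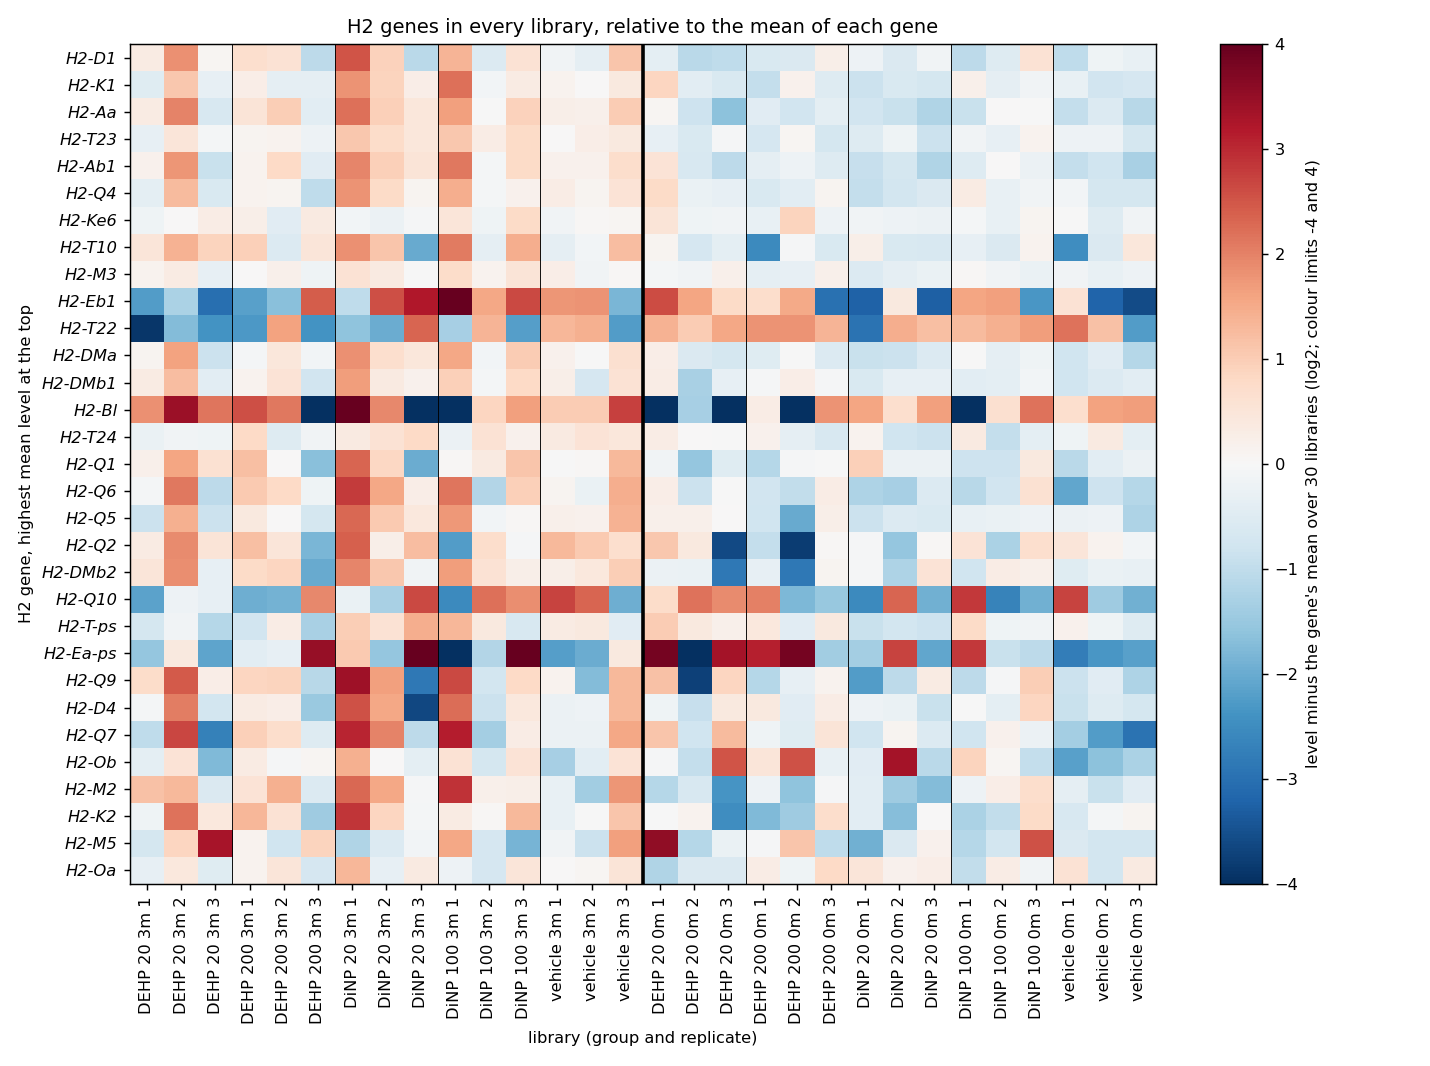
Level of each of the 31 H2 genes (one per line, highest mean at the top) in each of the 30 libraries (columns, 3-month groups left of the thick line and 0-month groups right of it), as the log2 difference from the mean of that gene over all libraries. Replicate 2 of DEHP 20 and replicates 1 of DiNP 20 and DiNP 100 at 3 months are high in most class I and class II genes, while H2-Bl, H2-Ea-ps, H2-Eb1, H2-T22 and H2-Q10 switch between high and low within groups.

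The difference that the H2 genes showed was between the time points. Averaged over the 5 treatments, 16 of 28 tested members differed between 3 months and 0 months, 15 of them higher and H2-T22 lower at 3 months. The 15 include H2-M2, which passed the filter of 0 log2 CPM only through its 3-month libraries, as given below. Over all tested genes 20.3% passed in this comparison, 10.6% higher and 9.63% lower at 3 months. The median difference of the 28 members was 0.84 log2, against 0.00 over all tested genes, and 25 of 28 were positive, against 50.7% of all tested genes. By class, 10 of 19 tested class I members rose and 1 fell (median 0.80), and 5 of 8 tested class II members rose (median 0.97). H2-T10 is among the 10 and H2-T22 is the 1 that fell. These calls are not independent, as described below: the summed CPM of both genes differed by 0.37 log2, upward. In whole ovaries more cells of a type and more RNA per cell cannot be told apart.

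Among the class II genes H2-Aa had the largest difference of those that passed. It ran from 5.72 to 8.57 log2 CPM with a median of 6.89 at 3 months, against 4.74 to 6.45 with a median of 5.60 at 0 months (15 libraries each). The difference was 1.38 ± 0.25 (SE, adjusted p = 0.00109), and the ranges overlap. H2-Ab1, its beta chain partner, ran from 4.86 to 7.86 with a median of 6.28 at 3 months, against 4.46 to 6.31 with a median of 5.11 at 0 months. The ranges again overlap, and the difference was 1.17 ± 0.24 (adjusted p = 0.0028).

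The chains of the peptide loader H2-DM moved the same way. H2-DMa had a median of 3.35 (2.04 to 4.73) at 3 months, against 2.37 (1.76 to 3.17) at 0 months, a rise of 0.97 ± 0.21 (adjusted p = 0.00348). H2-DMb1 rose by 0.68 ± 0.20 (adjusted p = 0.0208) and H2-DMb2 by 1.15 ± 0.37 (adjusted p = 0.0334). The last 2 share 11.2% of the windows of H2-DMb1, so their split is uncertain. H2-Ob, which with H2-Oa restrains H2-DM, differed by -0.13 ± 0.44. H2-Eb1 differed by 0.97 ± 0.69 (adjusted p = 0.331), with an interval of -0.46 to 2.39, and did not pass.

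Of the class I genes both classical heavy chains passed as higher at 3 months, but the call of H2-D1 was lost in 19 of the 40 alternative runs described below. H2-K1 had a median of 7.80 (7.07 to 9.76) at 3 months, against 7.01 (6.58 to 8.39) at 0 months, a difference of 0.76 ± 0.22 (adjusted p = 0.0196). H2-D1 had a median of 8.55 (6.91 to 10.48) at 3 months, against 7.46 (6.90 to 8.57) at 0 months, a difference of 0.91 ± 0.30 (adjusted p = 0.0385). Among the class Ib genes H2-T23, H2-M3 and H2-Q6 had the smallest p. H2-T23 had a median of 6.39 (5.74 to 7.17) at 3 months, against 5.75 (5.21 to 6.23) at 0 months, and its rise of 0.70 ± 0.11 had the smallest p of all members (adjusted p = 0.000404). H2-M3 rose by 0.36 ± 0.09 (adjusted p = 0.00715) and H2-Q6, a source of Qa-2, by 1.40 ± 0.35 (adjusted p = 0.00957). H2-M2 (1.40), H2-Q5 (0.88), H2-T10 (1.13), H2-Q4 (0.62) and H2-T24 (0.43) passed as well. H2-M2 averaged 0.01 log2 CPM over the 30 libraries, just above the filter of 0. Its mean was 0.71 at 3 months, against -0.69 at 0 months, so it was tested only because of its 3-month levels. The 3 Q region genes that rose share 2.04% (H2-Q4) to 13.7% (H2-Q5) of their windows with other genes, H2-Q5 and H2-Q6 mostly with H2-Q7.

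Summed as linear CPM before the log, so that reads divided among similar copies count once, class I reached a median of 756 CPM (419 to 2686) at 3 months, against 491 CPM (412 to 789) at 0 months. Class II reached a median of 284 CPM (93.9 to 754) at 3 months, against 121 CPM (71.9 to 273) at 0 months. On the log2 scale these sums differed by 0.77 for class I and 1.19 for class II. The low ends of the ranges lie closer together than the high ends.

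**Figure D2:**
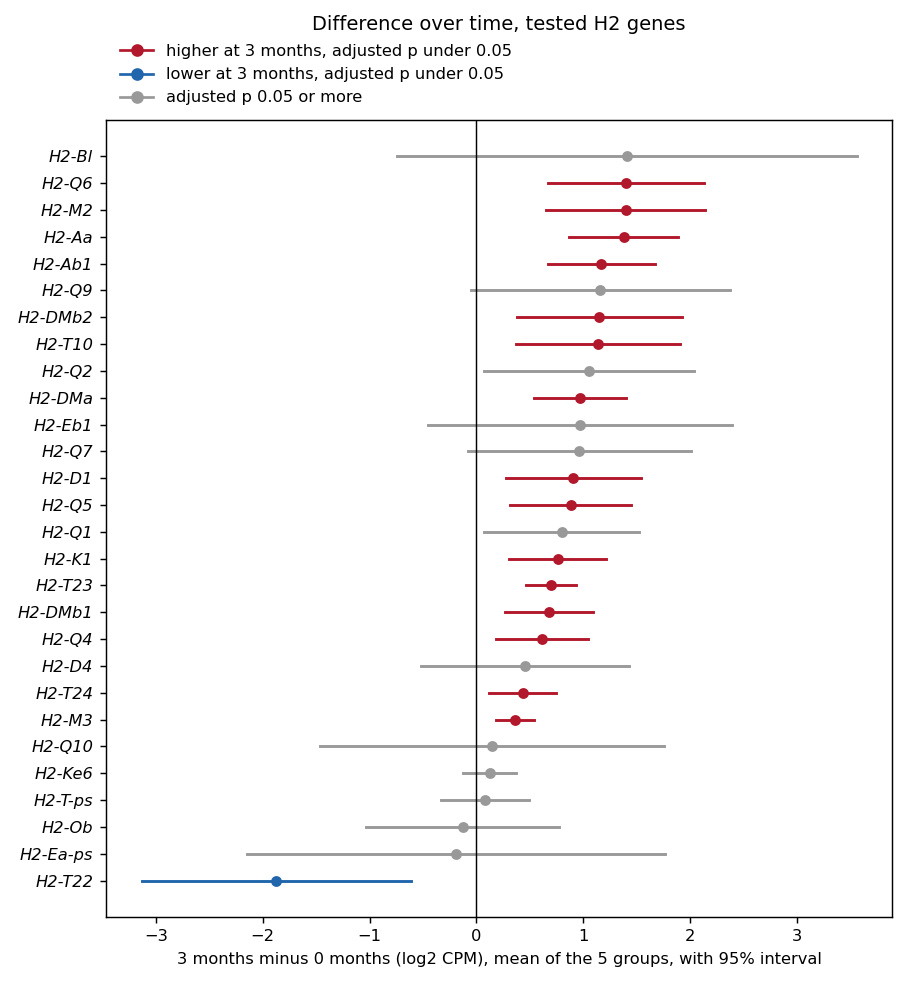
Difference between 3 months and 0 months in log2 CPM for the 28 tested H2 genes (points, mean of the 5 treatments, with 95% intervals as lines), in order of size. Red marks the 15 genes that passed as higher at 3 months, blue H2-T22, the one that passed as lower (-1.87), and grey those that did not pass.

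The upper end at 3 months lay in 3 libraries, replicate 2 of DEHP 20, replicate 1 of DiNP 20 and replicate 1 of DiNP 100. Their class II sums were 564, 654 and 754 CPM, against at most 380 CPM in any other library, and they also held the 3 highest class I sums (1709, 2686 and 1983 CPM). They belong to 3 different treatments. Without these 3, which were picked by these very values, 4 of 28 members passed, namely H2-T23 (0.59), H2-Aa (1.06), H2-Ab1 (0.83) and H2-DMa (0.68). The median difference was then 0.52, and 1154 of all tested genes passed in place of 2986. Leaving out single libraries also moved the count. It was 9 without replicate 3 of the vehicle group at 3 months or without replicate 1 of DiNP 20 at 3 months, and 10 without replicate 1 of DEHP 200 at 3 months. H2-T24 lost its call under 24 of 39 alternatives, H2-D1 under 19 of 40, H2-Q4 under 17 of 40 and H2-T10 under 14 of 40. For H2-T22 it was 13 of 40, for H2-DMb2 11 of 39 and for H2-Q5 3 of 39. The adjusted p in limma went up to 0.141 for H2-T24 and 0.188 for H2-D1. H2-T23, H2-Aa, H2-Ab1 and H2-DMa passed under each alternative run.

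In the vehicle groups alone, with 3 libraries at each time, no member passed. The differences were 1.06 for H2-DMa, 0.76 for H2-K1 and -0.20 for H2-T22. H2-Ab1 was at 5.91, 5.93 and 6.45 log2 CPM in vehicle ovaries at 3 months, against 4.80, 4.95 and 4.46 at 0 months. The 2 sets of 3 do not overlap, and the difference was 1.36 ± 0.54 (adjusted p = 0.603). H2-Aa was at 6.60, 6.59 and 7.39 at 3 months, against 5.43, 5.82 and 5.27 at 0 months, again without overlap, with a difference of 1.35 ± 0.55 (adjusted p = 0.611). H2-T23 differed by 0.59 ± 0.25. Over all members 0 of 28 passed in limma and 6 had an unadjusted p under 0.05, while 1 of 14740 genes passed (0.00678%) and 1176 (7.98%) had an unadjusted p under 0.05. The median of the members was 0.87 and 27 of 28 were positive, against a median of 0.00 and 49.5% positive over all tested genes.

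Genes that work with the H2 molecules were higher at 3 months too. Of 14 genes of class I loading and peptide supply 8 rose and 0 fell (median 0.38). B2m, the light chain of class I, rose by 0.95 ± 0.20, the chaperone Tapbp by 0.56 ± 0.12 and the immunoproteasome subunit Psmb8 by 0.70 ± 0.20, whereas the general chaperones Calr, Canx and Pdia3 lay between 0.03 and 0.08 and did not pass. Of 6 tested class II companions 3 rose. The invariant chain Cd74 rose by 1.28 ± 0.23 and the costimulator Cd86 by 0.74 ± 0.15, while the protease Ctss, at 0.35 ± 0.19, did not pass.

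Of 12 regulators of H2 transcription 5 rose and 1 fell. Among them Ciita rose by 1.03 ± 0.25, Nlrc5 by 0.70 ± 0.24, Irf1 by 0.27 ± 0.08 and Irf2 by 0.13 ± 0.05. Nfya, a subunit of the Y box factor, fell by 0.21 (SE 0.05). Rfx5, Rfxap and Rfxank, which bind the neighbouring X box, lay between -0.18 and 0.07 and did not pass. Of 22 interferon response genes 12 rose and 0 fell (median 0.57), among them Gbp2 (0.55 ± 0.11) and Ifit1 (0.80 ± 0.22), while Isg15 (0.42 ± 0.25) did not pass.

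Markers of leukocytes moved with these results. Of 12 macrophage markers 11 rose and 0 fell (median 0.67), and their summed level ran from 303 to 707 CPM at 3 months, against 201 to 434 CPM at 0 months. Lyz2 had the highest mean of that list and weighs most in the sum. It hardly moved, with a mean of 7.21 log2 CPM at 3 months, against 7.11 at 0 months. Adgre1, which encodes F4/80, rose by 0.70 ± 0.16. Of 6 markers of all leukocytes 3 rose (median 0.41), with Ptprc, the CD45 gene, at 0.57 ± 0.14 and a summed level of 54.5 to 135 CPM at 3 months, against 40.7 to 76.3 CPM at 0 months. Lymphocyte markers were low. The 6 of 8 B cell markers in the table summed to 4.84 to 8.68 CPM at 3 months, against 4.11 to 8.78 CPM at 0 months, and Ms4a1, the CD20 gene, averaged below 0 log2 CPM at both times. Of them only Cd22 was tested, and it rose by 0.53 ± 0.12. The 10 T and NK cell markers summed to 9.46 to 21.6 CPM at 3 months, against 8.71 to 15.04 CPM at 0 months, and 0 of the 3 tested passed. Of 10 dendritic cell markers 4 were tested and Irf8 rose (0.56 ± 0.12). The summed level was 55.3 to 87.0 CPM at 3 months, against 48.6 to 67.2 CPM at 0 months. Zbtb46 (mean 5.16 log2 CPM at 3 months, against 5.10) and Irf8 (4.40, against 3.84) make up most of this sum. Itgax averaged 2.17, against 2.04. Flt3, Clec9a, Batf3, Cd209a, Ccr7 and Siglech averaged below 0 log2 CPM at 3 months, and Batf3 and Cd209a were lower than at 0 months. The sum therefore says little of most of these markers.

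Markers of the ovarian compartments moved as well: 7 of 8 granulosa and 8 of 8 oocyte markers fell at 3 months (medians -0.53 and -0.76), and of 6 theca and interstitial markers 1 rose and 2 fell (median 0.32). The part of these shifts in the H2 differences was not tested.

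**Figure D3:**
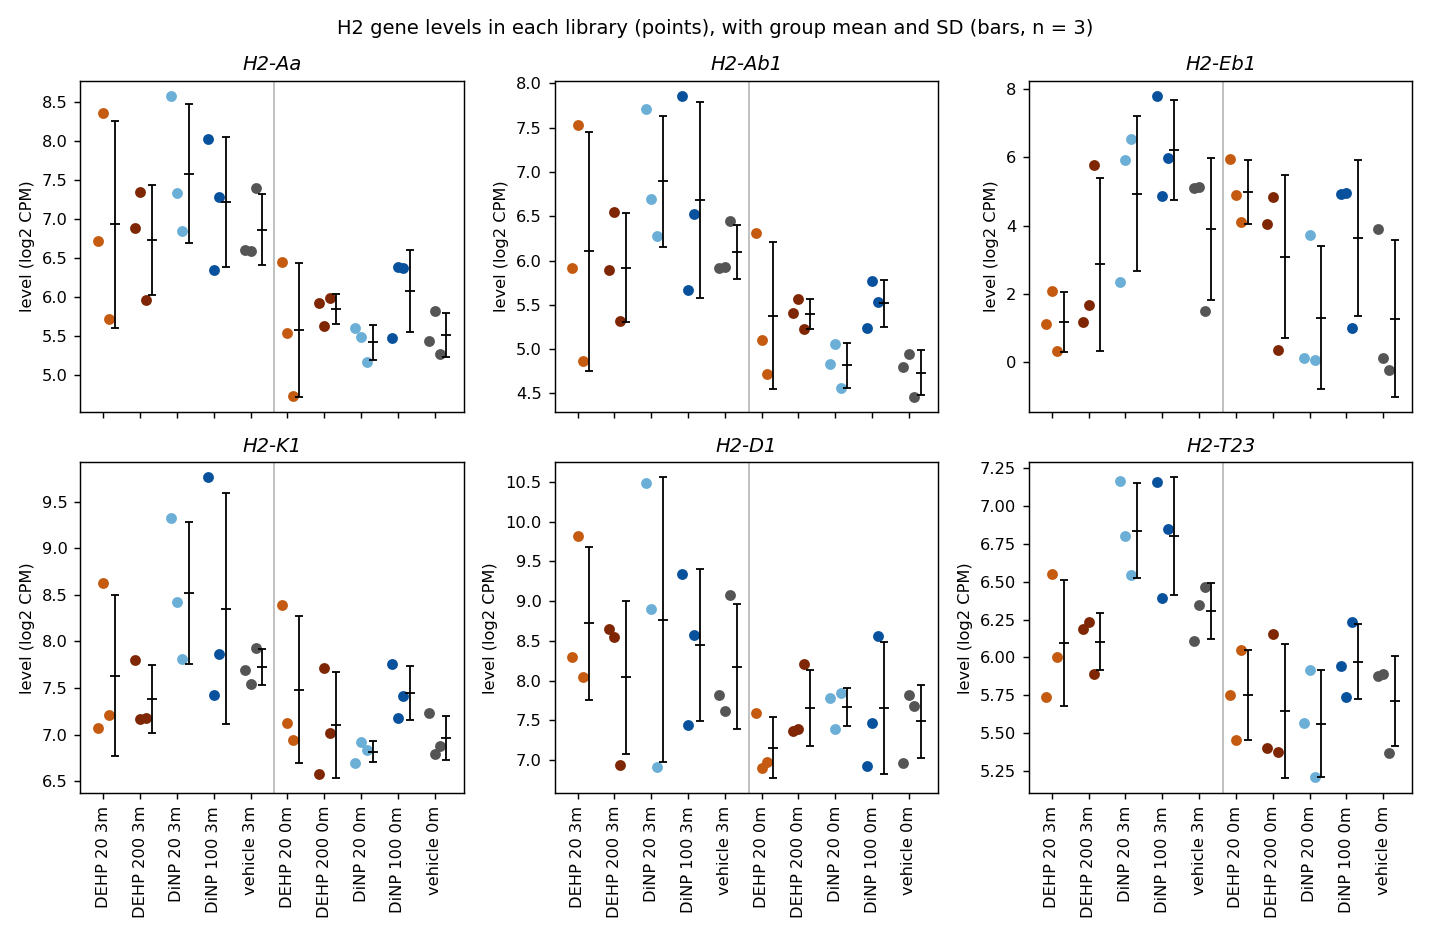
Level in log2 CPM of 6 H2 genes in each library (points) by group, 3-month groups left of the grey line and 0-month groups right of it, treated groups left of the vehicle group at each time; the bar beside each group is its mean with the SD of 3 libraries. H2-T23, H2-Aa and H2-Ab1 are mostly higher at 3 months, and H2-Eb1 takes high and low values within most groups.

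Across the 30 libraries H2-Ab1 moved with H2-Aa, with Cd74 and with the leukocyte marker Ptprc. H2-Ab1 correlated with H2-Aa at Pearson r = 0.96 and Spearman rho = 0.95 (r = 0.94 without the 2 libraries farthest from the median of H2-Aa), and with Cd74 at r = 0.99 and rho = 0.98. Without the 2 libraries farthest from the median of Cd74, r was 0.98, and within the 15 libraries of each time it was 0.99 at 3 months and 0.97 at 0 months. With Ciita r was 0.92 and rho 0.86 (0.87 without 2), and within times r was 0.94 at 3 months and 0.65 at 0 months. With Ptprc r was 0.86 and rho 0.80 (0.80 without the 2 extreme libraries), and within times r was 0.82 at 3 months and 0.63 at 0 months. The macrophage marker Adgre1 gave r = 0.75 and rho = 0.74 (0.76 without 2), with r = 0.75 at 3 months and 0.49 at 0 months. All permutation adjusted p in these 5 pairs were at most 3.33e-05. The tests used 100000 resamples over a family of 15 relations, and the smallest p they can give before adjustment is 1e-05. H2-Eb1 is not in this family, although its correlation with H2-Ab1 was planned. Because the tests ran over all 30 libraries, the difference between the times enters them. Within groups r was 0.95 with H2-Aa, 0.99 with Cd74, 0.90 with Ciita, 0.75 with Ptprc and 0.59 with Adgre1. The pair with H2-DMa gave r = 0.96 and rho = 0.95 (r = 0.95 without 2, permutation adjusted p = 1e-05 and 2.14e-05). For H2-DMa r was 0.97 at 3 months, 0.83 at 0 months and 0.92 within groups. H2-Ab1 did not pass the test with the B cell marker Cd79a (r = -0.24, rho = -0.20, permutation adjusted p = 0.208 and 0.298, r = -0.34 without 2) or with Itgax, the CD11c gene (r = 0.29, rho = 0.27, adjusted p = 0.125 and 0.166, r = 0.18 without 2).

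For class I, H2-K1 correlated with B2m at r = 0.94 and rho = 0.91 (0.91 without the 2 extreme libraries), and within times r was 0.95 at 3 months and 0.87 at 0 months. With Psmb8 r was 0.92 and rho 0.89 (0.87 without 2), and with Tap1 r was 0.90 and rho 0.73 (0.79 without 2). The permutation adjusted p of these 3 pairs were at most 3.33e-05. Within times r with Psmb8 was 0.93 at 3 months and 0.80 at 0 months, and with Tap1 0.95 at 3 months and 0.57 at 0 months. H2-K1 and H2-D1, though both classical heavy chains, followed each other less closely, with r = 0.66 and rho = 0.43 (permutation adjusted p = 0.000254 and 0.0219). Without the 2 extreme libraries r was 0.49, and within times it was 0.73 at 3 months and -0.10 at 0 months. With Ptprc the values for H2-K1 were r = 0.73 and rho = 0.59 (permutation adjusted p = 2.5e-05 and 0.000962, r = 0.60 without 2), but within times r was 0.81 at 3 months and 0.10 at 0 months. With Nlrc5 r was 0.85 and rho 0.67 (0.73 without 2), and within times r was 0.88 at 3 months and 0.60 at 0 months. With Isg15 r was 0.68 and rho 0.76 (0.67 without 2), and within times r was 0.65 at 3 months and 0.70 at 0 months. The permutation adjusted p of these 2 pairs were at most 6.82e-05. Within groups r for H2-K1 was 0.91 with B2m, 0.87 with Psmb8, 0.89 with Tap1, 0.82 with Nlrc5, 0.64 with Isg15, 0.63 with H2-D1 and 0.58 with Ptprc. All of these libraries share the same normalization to total counts.

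**Figure D4:**
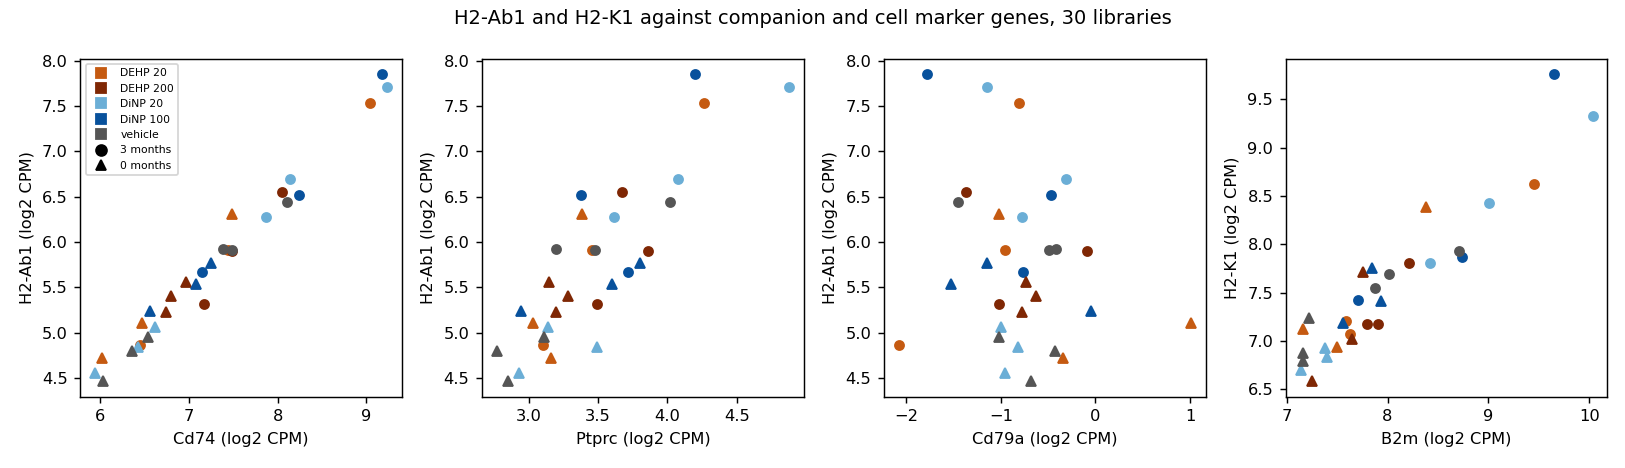
Level in log2 CPM of H2-Ab1 against Cd74, Ptprc and Cd79a, and of H2-K1 against B2m, in 30 libraries (circles at 3 months, triangles at 0 months, coloured by treatment). H2-Ab1 lies along a narrow line with Cd74 (r = 0.99) and a wider band with Ptprc (r = 0.86), and scatters widely against Cd79a (r = -0.24).

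Of the 28 tested members 7 (25%) did not vary smoothly but fell on either side of a gap of at least 1 log2 unit with 3 or more libraries on each side: H2-T10, H2-T22, H2-Bl, H2-Eb1, H2-Q10, H2-Ea-ps and H2-Ob. These were picked after their values were seen. The same criterion took 86 of the 14740 tested genes (0.583%), which were not matched to the members for level.

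H2-Eb1 is the clearest case among the class II genes. At 3 months it was at 1.11, 2.08 and 0.32 log2 CPM with DEHP 20, at 1.16, 1.66 and 5.77 with DEHP 200, at 2.33, 5.92 and 6.55 with DiNP 20, at 7.80, 4.88 and 5.99 with DiNP 100, and at 5.11, 5.12 and 1.51 with vehicle. At 0 months it was at 5.95, 4.91 and 4.10 with DEHP 20, at 4.05, 4.85 and 0.36 with DEHP 200, at 0.12, 3.73 and 0.07 with DiNP 20, at 4.93, 4.97 and 1.00 with DiNP 100, and at 3.91, 0.12 and -0.23 with vehicle. No library lay between 2.33 and 3.73, and 8 of 15 were above the gap at 3 months, against 9 of 15 at 0 months. None of the 3 DEHP 20 libraries was above it at 3 months, whereas all 3 were at 0 months. In the same libraries H2-Aa and H2-Ab1 had no such gap: replicate 2 of DEHP 20 at 3 months had the third highest H2-Ab1 level (7.53) and a low H2-Eb1 level (2.08).

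Other gapped members nested within H2-Eb1. H2-Ea-ps, the alpha chain locus that pairs with H2-Eb1 and is a pseudogene in the reference strain, was above its gap (1.90 to 3.56) in 9 libraries, and all 9 were above the gap of H2-Eb1. It was at the lowest value of the table, -3.34, in 2 libraries. H2-Q10, whose product is known as a class Ib molecule secreted by liver, was above its gap (1.71 to 2.87) in 12 libraries, and again all 12 were above that of H2-Eb1. H2-Ob was above its gap in 3 libraries, all at 0 months and all above the gap of H2-Eb1 and of H2-Ea-ps. These counts are over single libraries and were not tested.

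H2-T22 and H2-T10, class Ib molecules recognised by gamma delta T cells, formed the other pattern. At 3 months H2-T22 was at -0.63, 1.52 and 0.87 with DEHP 20, at 0.96, 4.89 and 0.88 with DEHP 200, at 1.64, 1.28 and 5.61 with DiNP 20, at 1.93, 4.63 and 1.07 with DiNP 100, and at 4.59, 4.68 and 1.03 with vehicle. At 0 months it was at 4.66, 4.29 and 4.82 with DEHP 20, at 5.07, 5.06 and 4.62 with DEHP 200, at 0.31, 4.71 and 4.47 with DiNP 20, at 4.54, 4.67 and 4.94 with DiNP 100, and at 5.43, 4.44 and 1.02 with vehicle. It lay above its gap (1.93 to 4.29) in 5 of 15 libraries at 3 months, against 13 of 15 at 0 months. Its mean difference over the 5 treatments was -1.87 ± 0.61 (adjusted p = 0.0332). RefSeq annotates H2-T10 as a transcribed pseudogene in the reference strain.

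H2-T10 was low (2.13 to 2.67) in 3 libraries only, replicate 3 of DiNP 20 at 3 months and replicates 1 of DEHP 200 and of vehicle at 0 months, and these 3 held the highest H2-T22 levels of all (5.61, 5.07 and 5.43). No library was low in both genes. The 2 genes share 6.81% of the 101-base windows of H2-T10. Their sum of linear CPM ran from 36.3 to 110 CPM at 3 months, against 31.3 to 58.7 CPM at 0 months, with an SD of 0.41 log2 over all libraries, where H2-T22 alone had 1.95 and H2-T10 alone 1.12. On the summed scale the times differed by 0.37 log2, upward, whereas H2-T22 alone differed downward.

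H2-Bl, a T region gene annotated as a transcribed pseudogene in RefSeq, had the widest spread. At 3 months it was at 4.19, 5.79 and 4.50 with DEHP 20, at 4.92, 4.47 and -3.34 with DEHP 200, at 6.50, 4.27 and -1.66 with DiNP 20, at -2.78, 3.21 and 4.01 with DiNP 100, and at 3.38, 3.36 and 5.10 with vehicle. At 0 months it was at -3.34, 1.02 and -2.92 with DEHP 20, at 2.65, -3.34 and 4.14 with DEHP 200, at 3.93, 3.04 and 3.996 with DiNP 20, at -2.91, 3.01 and 4.54 with DiNP 100, and at 3.02, 3.97 and 4.03 with vehicle. It lay at or below -1.66 in 7 libraries, in 3 of them at the lowest value of the table, and in 0 between -1.66 and 1.02. All 7 were above the gap of H2-Eb1.

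**Figure D5:**
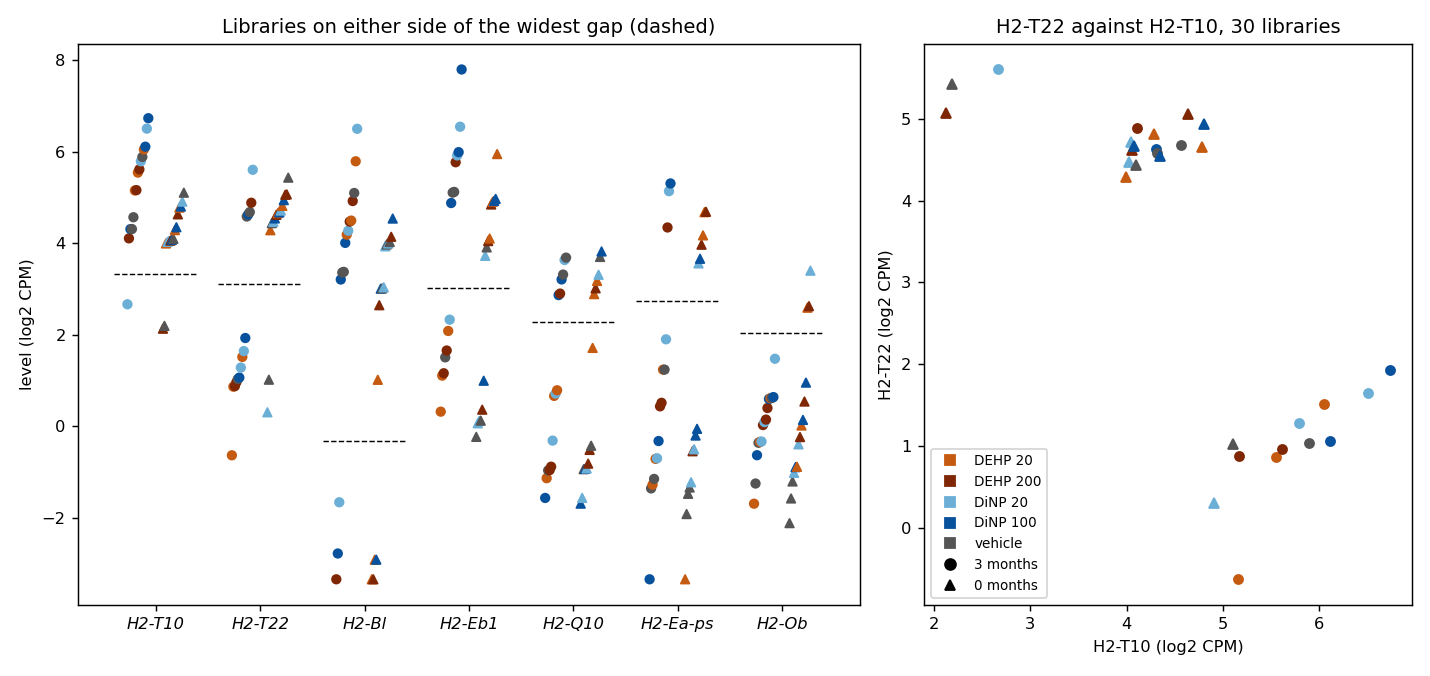
Left, level in log2 CPM of the 7 gapped H2 genes in 30 libraries (circles at 3 months, triangles at 0 months, coloured by treatment), with the middle of the widest gap as a dashed line. Right, H2-T22 against H2-T10, where the libraries form 3 clumps and none is low in both genes.

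No treatment moved the H2 genes past the test. Against vehicle, limma called 0 of 28 members in each of the 8 comparisons, and 0% of the 14740 tested genes. At 3 months an unadjusted p under 0.05 was met by 1 member (DEHP 20), 0 members (DEHP 200), 2 members (DiNP 20) and 1 member (DiNP 100), and over all tested genes 248, 212, 224 and 1368 did. At 0 months 4, 1, 1 and 0 members did in the same order, and 350, 740, 307 and 258 of all tested genes. The one test over all 4 treatments called 0 genes at either time, with 3 members and 588 genes at an unadjusted p under 0.05 at 3 months, and 0 members and 325 genes at 0 months. H2-T-ps had the smallest p of the members in both. All 4 comparisons at a time use the same vehicle libraries. Leaving out replicate 2 of DiNP 100 at 3 months brought 633 genes past the test against vehicle and 5 in the test over all treatments, and 0 members in either.

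At 3 months the 28 members had a median difference of 0.00 for DEHP 20, -0.19 for DEHP 200, 0.63 for DiNP 20 and 0.34 for DiNP 100, against medians of -0.01 to 0.01 over all tested genes. Positive differences were found in 14 of 28 members for DEHP 20, 8 for DEHP 200, 22 for DiNP 20 and 22 for DiNP 100, against 47.1 to 51.5% of all tested genes. The median for DiNP 20 was 0.13 without its replicate 1, and that for DiNP 100 was -0.02 without its replicate 1. For DEHP 20 it was -0.62 without its replicate 2, and for DEHP 200 it was 0.03 without its replicate 3. H2-T23 was at 7.17, 6.80 and 6.54 log2 CPM in DiNP 20 ovaries, against 6.11, 6.34 and 6.47 in vehicle ovaries, without overlap, a difference of 0.53 ± 0.25 (adjusted p = 1). H2-K1 was at 9.33, 8.42 and 7.81 in DiNP 20 ovaries, against 7.70, 7.55 and 7.93 in vehicle ovaries, with overlap, a difference of 0.79 ± 0.49 with an interval of -0.23 to 1.81. The leukocyte marker Ptprc differed by 0.63 ± 0.30 in the same comparison, and its part was not tested. With DiNP 100 H2-M3 had the smallest p (0.40 ± 0.19), and H2-T23, at 7.16, 6.39 and 6.85, differed by 0.49 ± 0.25. With DEHP 20 the smallest p belonged to H2-T22 (-2.85 ± 1.36), H2-T24 (-0.64 ± 0.34) and H2-Eb1 (-2.74 ± 1.54), and with DEHP 200 to H2-T-ps (-0.66 ± 0.44).

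For H2-Ab1 the intervals at 3 months ran from -1.11 to 1.13 with DEHP 20, from -1.29 to 0.94 with DEHP 200, from -0.32 to 1.92 with DiNP 20 and from -0.53 to 1.71 with DiNP 100, so changes of 1 log2 unit in H2-Ab1 lie inside each of them in at least one direction. The same holds for H2-D1, with an SE of 0.68 in every comparison of 2 groups.

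At 0 months the medians of the members were 0.46 (DEHP 20), 0.25 (DEHP 200), 0.00 (DiNP 20) and 0.48 (DiNP 100). With one library left out they ran from 0.16 to 0.68, from 0.17 to 0.46, from -0.17 to 0.08 and from 0.38 to 0.61 in the same order. H2-Ob was at 0.02, -0.88 and 2.59 in DEHP 20 ovaries, at 0.54, 2.63 and -0.24 in DEHP 200 ovaries, at -0.39, 3.40 and -1.02 in DiNP 20 ovaries and at 0.96, 0.14 and -0.89 in DiNP 100 ovaries, against -2.12, -1.58 and -1.21 in vehicle ovaries. Each treated group lay above the vehicle libraries without overlap, by 2.21 (DEHP 20), 2.61 (DEHP 200), 2.30 (DiNP 20) and 1.70 (DiNP 100), each with an SE of 0.97. DEHP 20, DEHP 200 and DiNP 20 each had 1 library above the gap in H2-Ob, and without replicate 2 of DiNP 20 the difference of H2-Ob with DiNP 20 was 0.93. The same 3 vehicle libraries enter each difference, and the smallest adjusted p in limma was 0.914. H2-Ob averaged 0.07 log2 CPM over the 30 libraries, just above the filter of 0. That mean includes the 3 libraries above its gap, all from treated groups. It was named for its small p with DEHP 200, DiNP 20 and DiNP 100. How many other genes lie apart from vehicle in this way was not counted. H2-Q7, another source of Qa-2, was at 1.31, -0.61 and 1.44 in DEHP 20 ovaries, against -1.18, -2.04 and -2.76 in vehicle ovaries, a difference of 2.71 ± 1.13 (adjusted p = 1). H2-Eb1 differed by 3.72 ± 1.54 and H2-Bl by -5.42 ± 2.32 with DEHP 20, both genes with the gaps described above.

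At the dose both compounds share, 20 ug/kg/day, DEHP and DiNP were compared directly at each time, which gives 2 pairs adjusted over all tested genes. Of 28 members 0 passed at either time and 0% of all tested genes did. At 3 months the median of the members was -0.72 and 22 of 28 were lower with DEHP 20, and 5 had an unadjusted p under 0.05 (427 of all tested genes). H2-T-ps was at 0.26, 0.83 and -0.15 in DEHP 20 ovaries, against 1.96, 1.55 and 2.44 in DiNP 20 ovaries, without overlap, a difference of -1.67 ± 0.44 (adjusted p = 1). H2-T23 differed by -0.74 ± 0.25 and H2-Ab1 by -0.79, with an interval of -1.91 to 0.33. At 0 months the median was 0.40 and 20 of 28 were higher with DEHP 20. H2-T-ps was then at 1.98, 1.37 and 1.17 in DEHP 20 ovaries, against 0.09, 0.23 and 0.14 in DiNP 20 ovaries, a difference of 1.35 ± 0.44 in the other direction (adjusted p = 1). The function of H2-T-ps is not known from these files.

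Whether a treatment effect differed between the times was tested for each compound and dose. None of the 28 members passed (0% of all tested genes), and 3, 0, 1 and 0 had an unadjusted p under 0.05 for DEHP 20, DEHP 200, DiNP 20 and DiNP 100 (289, 375, 219 and 343 of all tested genes). The smallest p was that of H2-Eb1 with DEHP 20, whose effect at 3 months less that at 0 months was -6.46 ± 2.17 (adjusted p = 1). This is the gene that was above its gap in 0 of 3 DEHP 20 libraries at 3 months, against 3 of 3 at 0 months.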

How the data were processed

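Ovaries were flash frozen and single reads of 101 bases came from stranded messenger RNA libraries, per the labels' protocols. The submitters' processing notes name GRCm38.p6, R 3.5.2, edgeR (version not given in the sources used here), Salmon 0.11.3 and FastQC 0.11.8. The authors deposited one table of log2 CPM for 18022 genes, used as it stands, whose lowest value is -3.34 log2 CPM (0.0986 CPM). Whole reads could not be recovered from it: at the best step only 6.06 to 13.1% of low values in a library came within 0.02 reads of a whole number, where 4% would by chance. Depth is therefore unknown and no count test was run.

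Genes with a mean above 0 log2 CPM were fitted in limma 3.58.1 (R 4.3.3) with one mean per group over all 30 libraries, a trended prior variance and Benjamini-Hochberg adjustment within each of 18 comparisons. The fit had 20 residual degrees of freedom, and was tested on simulated data. Members, gene lists and tests were chosen with earlier results of these data known. Values were given for the most abundant and most variable members and for those of smallest p in each comparison. Windows of 101 bases were compared over all GENCODE M21 transcripts, and coordinates and promoters are those of RefSeq. H2-D4 and H2-Q9 have no GENCODE transcripts and no coordinates here. The promoter table was searched by symbol. Some members of the gene lists are not reported here by name. The alternatives were other normalizations, filters, pseudocount and variance priors, a replicate block, each time alone, each library left out, and 2 sets of libraries left out that were chosen after seeing the data.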

Additional observations from a re-analysis of the deposited data

How the results depend on the processing

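All comparisons were recomputed under each alternative, and the differences followed for single genes, those of the members that passed over time and of the 3 members of smallest p in each other comparison, kept their sign. For the 16 members that passed between 3 months and 0 months, the count was 14 with quantile normalization, 15 with median centring, 17 with no filter, 11 of those above a mean of 2 log2 CPM, 12 with replicate 1 as the only DEHP 200 library at 0 months and 16 otherwise, and 9 to 17 with one library left out. Without the 3 libraries of highest class II total it was 4, with 1154 of all tested genes. With one library left out, all genes called over time ran from 2147 (without vehicle replicate 3 at 3 months) to 4389 (without DEHP 200 replicate 2 at 0 months). The labels' replicate numbers did not pair libraries: same-numbered libraries deviated together with a median correlation of -0.07 at 3 months and -0.03 at 0 months, and 8 of 30 correlated best with their own number. With the replicate block 16 members and 2678 genes passed, and no other call changed.

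The count of genes called in vehicle ovaries over time (1) was 0 with a mean above 2 log2 CPM, 2 with replicate 1 as the only DEHP 200 library at 0 months, and 1 to 4 (4 without DEHP 200 replicate 3 at 0 months) with one library left out. With one library left out, the all-gene count ran from 0 to 1 in each treated comparison at 0 months, in the any-treatment test at 0 months and in each test of an effect between times, with the 1 without vehicle replicate 3 at 0 months. At 3 months it ran from 0 to 633 with DiNP 100 and from 0 to 5 for any treatment, both highest without replicate 2 of DiNP 100. The median H2 difference of DEHP 20 against vehicle at 3 months ran from -0.62 to 0.47, and was -0.62 without the 3 libraries. With one library left out it ran from -0.42 to 0.03 for DEHP 200, from 0.13 to 1.05 for DiNP 20 and from -0.02 to 0.79 for DiNP 100. For DEHP 20 against DiNP 20 it ran from -1.17 to -0.18. For the DEHP 20 effect at 3 months less that at 0 months it ran from -0.97 to -0.11, and was -0.97 without the 3 libraries. The cause of these moves was not tested. Depth is unknown, and 3 libraries a group limit what could be seen.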
